A study of Mus musculus with 13 samples.

Results

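*Piezo2*, *Asic1*, *Asic2*, *Asic3* and *Whrn* were followed through single proprioceptive sensory neurons (pSNs) of mouse dorsal root ganglia (DRG) from e14.5 to the adult. These 5 genes were chosen by name, as channels linked to mechanotransduction and the scaffold protein Whirlin, and all 5 have a row among the 50508 genes of the count tables. *Piezo2* encodes a channel that opens under mechanical force, and it is known to be needed for proprioception. *Asic1*, *Asic2* and *Asic3* encode subunits of acid-sensing ion channels, trimeric sodium channels of the same family as the touch channels of nematodes, and combinations of them give channels of different properties. *Whrn* encodes Whirlin, a PDZ scaffold known from the stereocilia of hair cells, where it holds together a complex of Usher proteins, and it has also been described in proprioceptors.

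Single neurons were collected in 96-well plates for Plate-seq, in which each transcript is read with its well barcode and a unique molecular identifier (UMI). There were 5 plates of adult (older than p56), 4 of p12, 2 of p0 and 2 of e14.5 neurons, and 1248 wells in all. From p0 on, the sorted neurons came from mice with 1 copy each of *PV:Cre*, *Rx3:Flp* and the *Ai65* reporter, so tdTomato marked cells in which both recombinases had been active, at any time up to the sort. The e14.5 neurons came from *TrkC:tdTomato* embryos, whose reporter takes in other TrkC neurons too, and stage and reporter cannot be told apart in the comparison of p0 with e14.5. Animals of either sex were used, 2 for e14.5, 6 for p0, 4 for p12 and 6 for the adult. The adult neurons came from several experiments, fewer than the 5 adult plates. The plate of each animal and of each adult experiment is not given in the sources used here. Some adult plates thus share an experiment, and the spread between plates may be technical.

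The members were read over the 586 neurons that the authors kept after quality control, of which 169 were e14.5, 55 were p0, 154 were p12 and 208 were adult neurons. Their median depth was 10604 UMIs at e14.5 and 41058 at p0, and 24463 and 36927 UMIs in p12 and adult neurons. The same 96 well barcodes were used on every plate. The proprioceptor markers *Pvalb*, *Runx3*, *Ntrk3* and *Etv1* were found at every stage, with summed levels between 1667 and 5037 CPM on the 13 plates. The 3 nociceptor markers together stayed between 0 and 10.8 CPM, and the 6 markers of satellite glia and Schwann cells lay between 4.05 and 22.6 CPM on the e14.5 plates, 490 and 630 CPM at p0, 166 and 523 CPM at p12 and 293 and 814 CPM in the adult. The 3 markers of cutaneous low threshold mechanoreceptors (*Maf*, *Ret* and *Ntrk2*) together held 28.3 to 221 CPM on the plates, with 357 to 446 CPM in e14.5 cluster 3, 326 to 368 CPM in p12 cluster 2 and 227 to 521 CPM in adult cluster 1, and their part in the results was not tested. Expression is given as CPM (UMIs of a gene scaled to a fixed total per neuron), first as the mean of each plate's neurons and from those as mean ± SD across plates. Plates are the replicates, and a cluster enters with every plate that holds at least 2 of its neurons. Differences are log2 fold changes of UMIs summed by plate, or by cluster and plate, with their standard error (SE) and the adjusted p-value of edgeR's quasi-likelihood F-test, called under 0.05. Sums cannot tell fewer neurons with a transcript from less RNA in each of them. The clusters are those of the authors, who found them in the same neurons, so a test between clusters says only how far the plates repeat a cluster.

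Positions are those of GRCm38.p6, the build of the RefSeq table used here. *Asic1* spans 99670197 to 99701130 of chromosome 15 on the plus strand. *Asic2* covers 80880163 to 81968396 of chromosome 11 on the minus strand, a locus that overlaps 9 other RefSeq loci, 5 of which have a row in the tables. *Whrn* spans 63414908 to 63496083 of chromosome 4 on the minus strand and overlaps no other locus. *Asic3* is compact, 24413451 to 24417840 of chromosome 5 on the plus strand, and lies wholly within the RefSeq span of *Cdk5*, a gene of the minus strand with 4784 UMIs in the kept neurons against 471 of *Asic3*. Whether the counting used strand is not stated in the sources used here, so *Asic3* counts are uncertain to that extent, and *Cdk5* values are given beside the main comparisons of *Asic3*.

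*Asic3* and *Whrn* differed most between stages and between adult clusters, and the DNA just before the first start annotated in RefSeq or GENCODE vM21 is shown for that reason (RefSeq, GRCm38.p6, 5′ to 3′ on the strand of the gene). The *Asic3* stretch is chr5:24413201-24413391 on the plus strand, 191 bases, and that of *Whrn* is chr4:63496084-63496241 on the minus strand, 158 bases. Capitals mark the letters TGTGGT or their reverse complement ACCACA, the core recognised by RUNX factors such as Runx3, or CCGGAA and its reverse complement TTCCGG, a core recognised by ETS factors such as Etv1. These do not overlap each other.
Asic3: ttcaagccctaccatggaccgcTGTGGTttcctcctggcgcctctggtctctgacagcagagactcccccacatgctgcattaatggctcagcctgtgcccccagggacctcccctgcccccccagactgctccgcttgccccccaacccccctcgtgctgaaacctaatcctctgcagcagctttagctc
Whrn: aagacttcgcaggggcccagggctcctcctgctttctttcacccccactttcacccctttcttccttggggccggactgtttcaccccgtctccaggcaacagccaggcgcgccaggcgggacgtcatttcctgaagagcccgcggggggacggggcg
The *Asic3* stretch holds TGTGGT once, 169 bases before the first annotated start. The *Whrn* stretch holds none of these letters. Among the 32851 promoter windows of 300 bases in the table, 16.8% hold the RUNX letters and 14.9% the ETS letters on either strand. A match is a run of letters and not a binding site.

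*Piezo2*, the mechanically gated channel, was present at every stage. At e14.5 its level was 174 CPM on replicate 1 and 241 CPM on replicate 2. At p0 it was 274 and 265 CPM. At p12 the 4 plates held 240, 254, 219 and 208 CPM. The 5 adult plates held 208, 226, 157, 133 and 167 CPM, so the lowest levels lay among adult replicates 3 to 5, while adult replicates 1 and 2 fell within the range of the younger stages. A *Piezo2* UMI was found in all 55 neurons at p0, in 97.4% at p12, in 99.5% in the adult and in 74.6% at e14.5, where neurons were shallower. None of the 3 stage comparisons of *Piezo2* was called, with log2 fold changes of 0.26 ± 0.23 (SE, adjusted p = 0.423) for p0 against e14.5, -0.10 ± 0.20 (adjusted p = 0.76) for p12 against p0 and -0.46 ± 0.15 (adjusted p = 0.058) for adult against p12. The last of these passed with DESeq2 (-0.49, adjusted p = 0.0242) and with adult replicates 3 to 5 alone (-0.65, adjusted p = 0.0193), and had an adjusted p of 0.389 with adult replicates 1 and 2 alone.

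*Asic1*, whose subunit forms proton-gated channels by itself, was higher after birth. Both e14.5 plates were low, at 70.1 and 63.4 CPM, and both p0 plates held 135 and 139 CPM. The rise from e14.5 to p0 had a log2 fold change of 0.99 ± 0.21 (SE, adjusted p = 0.0033), and the plates of the 2 stages did not overlap. From p0 on, *Asic1* showed no called difference between stages. The p12 plates split into 187 and 164 CPM on replicates 1 and 2 against 122 and 116 CPM on replicates 3 and 4. The adult plates held between 134 and 166 CPM. The fitted changes were 0.24 ± 0.17 (SE, adjusted p = 0.373) for p12 against p0 and -0.01 ± 0.13 (adjusted p = 0.971) for adult against p12.

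*Asic2*, which lends its properties to channels built with other ASIC subunits, was read from few UMIs. Its level was 16.7 ± 6.61 CPM at e14.5 (SD, n = 2), 33.1 ± 3.45 at p0 (n = 2), 28.1 ± 8.26 at p12 (n = 4) and 25.4 ± 6.43 in the adult (n = 5). The 2 p0 plates, at 35.6 and 30.7 CPM, lay above both e14.5 plates, at 12.0 and 21.3 CPM. Against later plates, p0 replicate 2 lay within their range and p0 replicate 1 just above it. The difference of p0 from e14.5 did not pass (log2 fold change 1.00 ± 0.37, SE, adjusted p = 0.0562), nor did the later ones.

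*Asic3*, the subunit best known from sensory neurons, was highest at p0. It stood at 9.95 and 15.6 CPM on the e14.5 plates and at 64.4 and 54.9 CPM on the p0 plates. At p12 it was 34.7 and 31.9 CPM on replicates 1 and 2 but 8.65 and 6.78 CPM on replicates 3 and 4. The value of replicate 1 rests on 1 neuron with 29 UMIs (380 CPM), and the other 11 neurons of that plate had a mean of 3.29 CPM, below replicates 3 and 4. The adult plates lay close together, between 21.3 and 31.9 CPM, below both p0 plates. The rise from e14.5 to p0 was called (log2 fold change 2.15 ± 0.71, SE, adjusted p = 0.0364), but not when any 1 of the 4 plates of these stages was left out, with adjusted p-values between 0.0875 and 0.175. *Cdk5* rose too, by 1.20 ± 0.30 (adjusted p = 0.0094). The fall to p12 just missed the threshold (-1.67 ± 0.56, SE, adjusted p = 0.0509) and passed it without p12 replicate 1 (-2.23, adjusted p = 0.0135) or replicate 2 (-1.93, adjusted p = 0.0374). The change from p12 to the adult did not pass (0.50 ± 0.48, SE, adjusted p = 0.518), and was 1.05 without p12 replicate 1 (adjusted p = 0.154). *Cdk5* changed by 0.31 ± 0.25 (adjusted p = 0.443) and -0.36 ± 0.19 (adjusted p = 0.232) at these steps.

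The p12 plates differ in more than *Asic3*. Replicates 1 and 2 gave 25 kept neurons with a median depth of 56144 UMIs, and replicates 3 and 4 gave 129 with 22104. No p12 cluster has neurons on both pairs. Read against replicates 3 and 4 alone, *Asic3* fell by 3.22 on the log2 scale from p0 to p12 (adjusted p = 0.000419) and rose by 2.05 from p12 to the adult (adjusted p = 0.00447). Read against replicates 1 and 2 alone, the changes were -0.76 (adjusted p = 0.209) and -0.42 (adjusted p = 0.534). The direction of the change from p12 to the adult thus depended on the p12 plates used, a comparison added after the data were seen, and the values of replicates 1 and 2 include the neuron with 29 UMIs. Between the pairs, plate and cluster cannot be told apart at p12.

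*Whrn* rose at every step at full depth. At e14.5 only 2 *Whrn* UMIs were found in 169 neurons, 1 on each plate. At p0 the plates held 22.4 and 32.2 CPM. At p12 they held 69.4, 47.8, 64.5 and 46.0 CPM. The adult plates held 101, 89.7, 115, 89.4 and 110 CPM, so that no plate of one stage overlapped a plate of another. The log2 fold change was 4.60 ± 0.48 (SE, adjusted p = 2.0e-05) for p0 against e14.5, 1.15 ± 0.23 (adjusted p = 0.0037) for p12 against p0 and 0.73 ± 0.16 (adjusted p = 0.0097) for adult against p12. The middle step was not called without p0 replicate 1 (1.00, adjusted p = 0.0817). With neurons thinned to the same depth, the first step was called (3.33, adjusted p = 0.00332) and the others were not (1.21 and 0.66, adjusted p = 0.0803 and 0.0975). Since e14.5 holds 2 UMIs, the first value depends on the small count added in the fit. The ratio of the summed UMIs, 65 at p0 to 2 at e14.5, was 26.8-fold per UMI sequenced, with a 95% interval of 7.13 to 226-fold from counting error only. In edgeR, 3 of 5 members were called for p0 against e14.5, all higher, where 27.8% of all genes tested were called and 14.7% were higher. The glial markers also stood higher at p0, going from at most 22.6 to at least 490 CPM on a plate, and their part was not tested. For p12 against p0, 1 of 5 was called, *Whrn*, where 18.1% of all genes were. For adult against p12 it was again *Whrn* alone, where 14.1% of all genes were called.

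**Figure D1:**
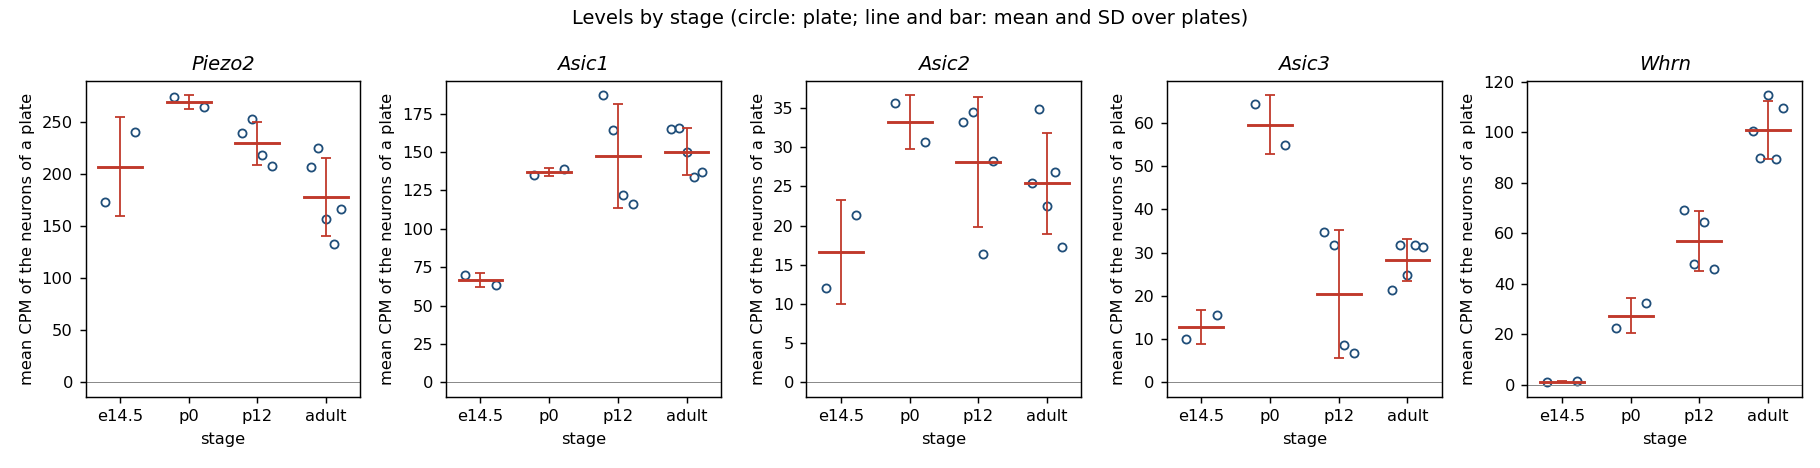
Levels of the 5 members by stage. Each circle is the mean CPM of the kept neurons of 1 plate, and the line and bar give the mean and SD over plates, with n = 2, 2, 4 and 5 plates from e14.5 to the adult. *Whrn* climbs from 1.23 to 101 CPM without overlap between stages, while *Asic3* is highest at p0 and spreads from 6.78 to 34.7 CPM at p12, where 1 neuron makes the highest value.

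Depth sets how often a transcript is seen, and each neuron was therefore also thinned to 7000 UMIs, which left out 18 neurons at e14.5 and 2 at p12. After thinning, *Whrn* was found in 1.32% of e14.5, 14.55% of p0, 30.9% of p12 and 47.1% of adult neurons, against 1.18%, 58.2%, 69.5% and 87.0% without thinning. *Asic3* was found in 9.27%, 27.3%, 5.26% and 9.13% of thinned neurons in the same order, and in 22 of 169, 40 of 55, 19 of 154 and 40 of 208 neurons at full depth. Both readings place the widest detection of *Asic3* at p0. *Piezo2* was found in between 62.3% and 80.0% of thinned neurons at all stages, and *Asic1* in 32.5% at e14.5 and in between 57.9% and 65.5% later. Over plates, none of the differences in thinned shares between p12 and the adult passed an exact two-sided permutation test, whose smallest p for 5 against 4 plates is 0.0159. Since a single member at that p has an adjusted p of 0.0794 over the 5 members, the test could not call 1 member alone. *Asic3* stood at 9.73% ± 3.88 in the adult and 6.34% ± 2.25 at p12 (exact permutation p = 0.175, adjusted over the 5 members 0.45). *Whrn* stood at 48.2% ± 4.79 and 36.5% ± 20.7 (exact permutation p = 0.27, adjusted 0.45). Counting neurons with at least 2 UMIs after thinning, *Whrn* stood at 14.9% ± 6.79 in the adult and 7.51% ± 1.82 at p12, at the smallest p the exact permutation test allows (p = 0.0159, adjusted 0.0794).

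Adult neurons fell into 5 numbered clusters of 51, 15, 41, 28 and 31 neurons, and a further 42 kept neurons carry no cluster number. Clusters 1, 3 and 5 were found on all 5 plates, cluster 3 with 1 neuron on replicate 1, which was not counted, and clusters 2 and 4 on replicates 1 and 2 only. *Asic1*, *Asic3* and *Whrn* differed among the 5 clusters (3 of 5 members, adjusted p = 0.0156, 0.0011 and 0.0073), where 9.67% of all genes tested were called. Of these, *Asic3* passed the filter on low counts only through cluster 5. *Piezo2* (adjusted p = 0.0669) and *Asic2* (adjusted p = 0.659) did not pass. That of *Asic1* was lost without any 1 of replicates 1, 2, 4 or 5 (adjusted p between 0.0531 and 0.0811), and that of *Whrn* without replicate 2 or 3 (adjusted p = 0.0928 and 0.0876).

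*Asic3* was highest in cluster 5 among the numbered clusters. Its 5 plates held 4.72, 32.5, 73.2, 33.4 and 32.4 CPM, while the 5 plates of cluster 1 held 1.04, 0, 1.27, 0 and 6.25 CPM. Only replicate 1 of cluster 5 fell within the range of cluster 1. In UMIs, cluster 5 held 59 in 12 of 31 neurons and cluster 1 held 3 in 3 of 51, at median depths of 57694 and 59922 UMIs. The log2 fold change of cluster 5 against cluster 1 was 4.77 ± 0.75 (SE, adjusted p = 0.00028). The ratio of the summed UMIs was 34.6, with a 95% interval of 11.3 to 173 from counting error only. Within replicates 3 to 5 the log2 fold change was 4.96 (adjusted p = 0.00105), and within replicates 1 and 2 it was 4.35 (adjusted p = 0.082). *Cdk5* stood at 253 ± 78.1 CPM in cluster 5 and 242 ± 57.3 CPM in cluster 1 (SD, n = 5; log2 fold change 0.04 ± 0.21, SE, adjusted p = 1.00). Clusters 2 and 4 held 1 and 4 *Asic3* UMIs, and cluster 3 held 6 in 5 neurons. With so few UMIs in clusters 1 to 4, *Asic3* passed the filter on low counts only through cluster 5. Its calls for cluster 5 thus rest on the counts that let it into the fit.

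*Whrn* went the other way. Cluster 5 held 91.6, 36.7, 37.7, 64.0 and 59.9 CPM on its 5 plates. Cluster 1 held 109, 126, 126, 88.7 and 140 CPM. Replicate 1 of cluster 5 lay above replicate 4 of cluster 1, and on each plate *Whrn* was lower in cluster 5. The log2 fold change was -1.11 ± 0.23 (SE, adjusted p = 0.0046), with -1.20 (adjusted p = 0.0134) within replicates 3 to 5 and -0.99 (adjusted p = 0.117) within replicates 1 and 2. Without replicate 2 or without replicate 3 the adjusted p was 0.0679 or 0.0593. The highest *Whrn* level of any adult cluster was that of cluster 3, 137 ± 16.5 CPM (SD, n = 4), whose range overlapped those of cluster 1 (118 ± 19.8 CPM, n = 5) and cluster 2 (129 ± 9.47 CPM, n = 2), and cluster 4 held 81.3 ± 24.9 CPM (n = 2).

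*Asic1* was lowest in cluster 5 as well. It held 122, 101, 98.1, 90.2 and 62.9 CPM on the plates of cluster 5 and 166, 171, 165, 140 and 160 CPM on those of cluster 1, so the clusters did not overlap. The log2 fold change was -0.70 ± 0.18 (SE, adjusted p = 0.0256). The call was lost without any 1 of replicates 2, 3, 4 or 5 (adjusted p between 0.0807 and 0.11) and within either set of plates (-0.65 and -0.73, adjusted p = 0.138 and 0.0512), with a like fold throughout. In all, 3 of 5 members were called for cluster 5 against cluster 1, where 4.76% of all genes tested were called. The same 3 members were called for cluster 5 against the mean of the other 4 clusters, with *Asic3* at 3.49 ± 0.57, *Asic1* at -0.84 ± 0.16 and *Whrn* at -1.08 ± 0.21 (SE, adjusted p = 0.00054, 0.0034 and 0.0035), where 4.03% of all genes were called, and *Whrn* was not called without replicate 2 (-0.96, adjusted p = 0.0591). With 1 plate left out, *Asic3* stood at 3.05 to 4.84. In both counts of 3 members, *Asic3* is one that passed the filter on low counts only through cluster 5. For *Asic1* the order of levels was cluster 2 (215 ± 22.1 CPM, n = 2), 3 (182 ± 39.8, n = 4), 1 (160 ± 12.2, n = 5), 4 (149 ± 51.6, n = 2) and 5 (94.8 ± 21.3, n = 5), and each cluster overlapped its neighbour in that order.

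*Piezo2* had its highest cluster means in clusters 2 and 4, but its highest single value, 334 CPM from 2 neurons, in cluster 3 on replicate 2. Clusters 2 and 4 held 244 ± 0.945 and 229 ± 9.79 CPM (SD, n = 2), cluster 3 held 209 ± 85.7 CPM (n = 4), cluster 5 held 165 ± 29.2 CPM and cluster 1 held 149 ± 22.7 CPM (n = 5). The plates of clusters 1, 3 and 5 overlapped, and cluster 3, at 138 to 334 CPM, overlapped clusters 2 and 4 as well. Clusters 1 and 5 together against clusters 2 to 4 gave -0.49 ± 0.13 (SE, adjusted p = 0.0232) for *Piezo2* and -0.53 ± 0.14 (adjusted p = 0.0292) for *Asic1*, 2 of 5 members where 5.63% of all genes were called. Neither call held without any 1 of the 5 plates or within replicates 1 and 2, though the fold stayed of a like size. With 1 plate left out it was -0.56 to -0.46 for *Piezo2* and -0.59 to -0.42 for *Asic1*. Clusters 2 and 4 are on replicates 1 and 2 only, on which *Piezo2* was also higher in cluster 1 (182 and 161 CPM) than on replicates 3 to 5 (134, 125 and 142 CPM). With the plate as a block both calls held, and *Whrn* was called for this contrast too (-0.52, adjusted p = 0.0393). Against cluster 1, *Piezo2* in cluster 5 changed by 0.12 ± 0.16 (SE, adjusted p = 0.869). Cluster 1 against the mean of the others called 0 of 5 members with edgeR, where 5.69% of all genes were called, and 0 with DESeq2, with 2 at an unadjusted p under 0.05. With the plate as a block *Piezo2* was called there (-0.38, adjusted p = 0.0143).

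*Asic2* showed no called difference between adult clusters. Its 5 cluster means lay between 24.9 ± 8.28 CPM (cluster 4, n = 2) and 41.2 ± 4.87 CPM (cluster 2, n = 2), its plates ranged from 6.23 to 80.8 CPM within cluster 3 alone, and its change between clusters 5 and 1 was -0.49 ± 0.37 (SE, adjusted p = 0.678).

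**Figure D2:**
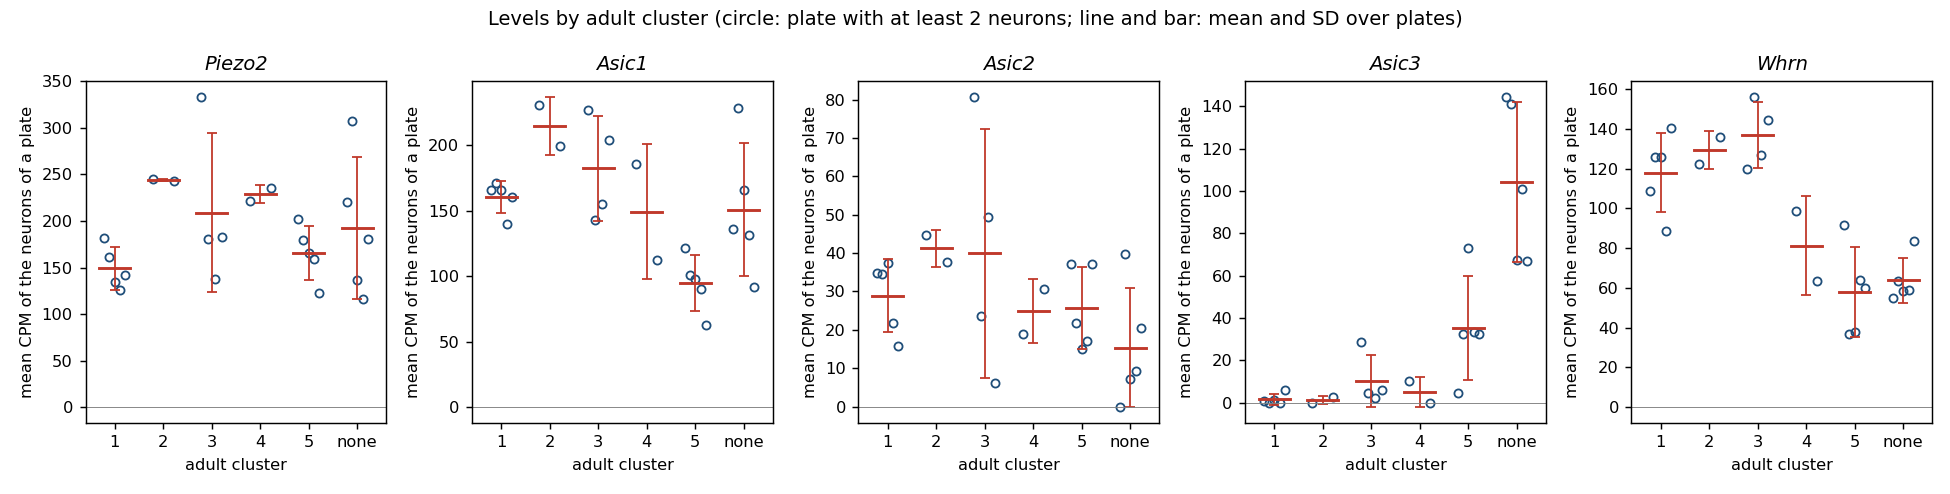
Levels of the 5 members in the adult clusters. Each circle is the mean CPM of the neurons of a cluster on 1 plate, the line and bar give the mean and SD over plates, and the last column holds the neurons without a numbered cluster. *Asic3* is near 0 in clusters 1 and 2 and higher in cluster 5 and in the neurons without a number, where *Whrn* is low. Cluster 4, with an *Asic3* UMI in 1 of 28 neurons, also has a lower mean of *Whrn* than clusters 1 to 3.

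Most adult *Asic3* lay outside the numbered clusters. The authors set the neurons outside them aside as small clusters and, for want of *Whrn* in part of these, considered afferents from outside muscle, so the *Whrn* level there is not independent of that reading. Whether all of these neurons are pSNs was not tested. Of 235 *Asic3* UMIs in the 208 adult neurons, 162 (68.9%) were in the 42 neurons without a cluster number, which make up 20.2% of the neurons. These neurons held *Asic3* at 145, 141, 67.5, 101 and 66.9 CPM on the 5 plates, each above the same plate of every numbered cluster except replicate 3 of cluster 5 (73.2 CPM). No neuron among these held a single *Asic3* UMI. In 18 of the 42 neurons it ranged from 49.2 to 431 CPM with a median of 229 CPM and up to 38 UMIs, and in the other 24 it had no UMI, at median depths of 30778 and 29854 UMIs. In cluster 5, the 12 neurons with the gene had a median of 76.0 CPM. Without the 42 neurons, the change of *Asic3* from p12 to the adult turned from 0.50 to -0.85 (adjusted p = 0.294). *Cdk5* in these neurons was 262 ± 95.7 CPM (SD, n = 5), within the spread of the numbered clusters.

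A smaller share of the adult neurons with an *Asic3* UMI held a *Whrn* UMI, mostly among those without a cluster number and in cluster 5. Among the 40 adult neurons with an *Asic3* UMI, 23 (57.5%) had a *Whrn* UMI, and among the 168 without one, 158 (94.0%) did, at median depths of 36827 and 36927 UMIs. The share was lower in neurons with *Asic3* on each of the 5 plates, at 71.4% against 91.1%, 45.5% against 88.1%, 60.0% against 97.0%, 57.1% against 100% and 60.0% against 100%. The gap was widest in the neurons without a cluster number (6 of 18 against 21 of 24), and stood at 8 of 12 against 17 of 19 in cluster 5 and 9 of 10 against 120 of 125 in clusters 1 to 4. Not all values went this way. In clusters 1 to 4 the mean *Whrn* level was 134 CPM with and 119 CPM without *Asic3*, on replicate 4 of cluster 5 it was 102 against 48.6 CPM, and on replicate 1 of the neurons without a number *Whrn* was found in 3 of 4 against 1 of 2. This comparison was chosen after the values were seen, and no test was made of it. All 18 neurons with *Asic3* but without a cluster number had a *Piezo2* UMI, and 16 had *Asic1*. Their median *Pvalb* was 983 CPM against 2149 CPM in the 24 others, and *Etv1* was found in 13 of 18 against 23 of 24. The other proprioceptor markers differed less, with *Runx3* found in 12 of 18 against 15 of 24 and a median *Ntrk3* of 391 against 367 CPM. *Ntrk2*, a marker of cutaneous mechanoreceptors, was found in 8 of 18 against 4 of 24, *Maf* in 9 against 11 and *Ret* in 12 against 11. The part of other sensory neurons in the *Asic3* signal was not tested.

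**Figure D3:**
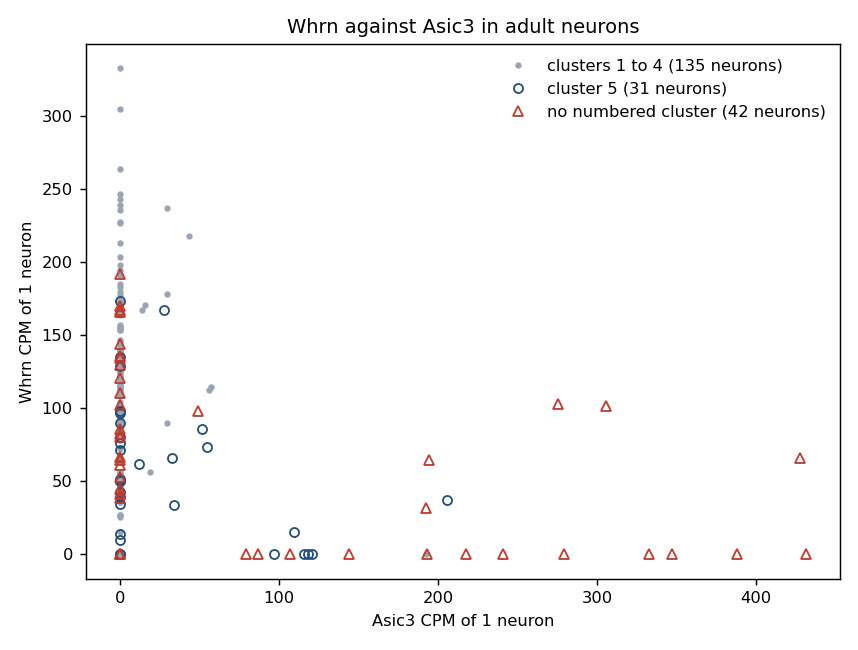
*Whrn* against *Asic3* in each of the 208 adult neurons, both in CPM. Of the 18 neurons without a numbered cluster that had *Asic3*, which reached 431 CPM, 6 had a *Whrn* UMI and the rest lie on the bottom line, and most neurons of clusters 1 to 4 stand at 0 CPM of *Asic3*, since only 10 of those 135 had an *Asic3* UMI.

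At p0, *Asic3* was found in 40 of 55 neurons and in all 3 clusters. Cluster 2, with 12 neurons, held 132 and 99.3 CPM on its plates and an *Asic3* UMI in all 12. Cluster 1, with 35 neurons, held 46.9 and 45.6 CPM, and cluster 3, with 8, held 32.9 and 34.4 CPM. Both plates of cluster 2 lay above all others, and the log2 fold change against the mean of clusters 1 and 3 was 1.72 ± 0.33 (SE, edgeR adjusted p = 0.0095), the 1 member called of 4 tested, where 1.21% of all genes were called. DESeq2 gave 1.69 with an adjusted p of 0.17. On 1 plate alone, with no test, the log2 ratio of summed UMIs (CPM + 1) was 2.37 on replicate 1 and 0.94 on replicate 2. *Cdk5* changed by 0.21 ± 0.16 (SE, adjusted p = 0.705). Summed glial markers stood at between 3207 and 3263 CPM in p0 cluster 3 and at or below 106 CPM in clusters 1 and 2, and their part was not tested. *Whrn* was under the filter on low counts there, with 45, 15 and 5 UMIs in clusters 1 to 3. Of the 55 p0 neurons, 17 (30.9%) held a UMI of all 5 members, against 11 of 208 (5.29%) in the adult and 6 of 154 (3.90%) at p12, at median depths of 41058, 36927 and 24463 UMIs.

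At p12, most *Asic3* UMIs were in 2 of the 5 clusters, 1 for each pair of plates. Cluster 3, on replicates 1 and 2, held 52 UMIs in 7 of 17 neurons at 57.8 and 41.4 CPM. Cluster 1, on replicates 3 and 4, held 17 UMIs in 10 of 63 neurons at 24.3 and 10.3 CPM. Clusters 2, 4 and 5 together held 2 UMIs in 74 neurons, and cluster 5, with 0 of 8 neurons, allows a share of neurons with an *Asic3* UMI of up to 37.5%, which does not limit the share that expresses the gene. The 57.8 CPM of replicate 1 rests on the neuron with 29 UMIs, without which the other 6 neurons of cluster 3 on that plate had a mean of 4.04 CPM. *Cdk5* stood at 337 ± 119 CPM in cluster 3 and 355 ± 9.65 CPM in cluster 1 (SD, n = 2). *Whrn*, by contrast, was found in all 5 clusters, at 48.2 ± 13.4 CPM in cluster 1 and between 59.8 and 76.6 CPM in the others (n = 2 plates each). The plates of clusters 1 and 4 did not overlap, and all other pairs of clusters did. *Asic1* was lowest in cluster 1, at 101 and 98.0 CPM, below every plate of the other 4 clusters, the lowest of which held 126 CPM. No test was made between p12 clusters.

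At e14.5, no difference of a member between clusters was called. *Whrn* had its 2 UMIs in cluster 2 and none in the 81 neurons of clusters 1, 3 and 4. *Piezo2* held 226 and 341 CPM in cluster 3, 178 and 229 CPM in cluster 2 and 95.5 and 199 CPM in cluster 1, with more on replicate 2 in each. Of the 2 members that passed the filter, neither differed in clusters 3 and 4 against clusters 1 and 2, which the authors read as TrkC neurons that are not proprioceptors and as proprioceptors (*Piezo2* 0.49 ± 0.34, adjusted p = 0.58, and *Asic1* 0.67 ± 0.40, adjusted p = 0.524, SE). edgeR and DESeq2 called 0 of 2 and neither had an unadjusted p under 0.05, where 1.18% of all genes were called. *Asic3* was found in 22 of 169 neurons with 25 UMIs, in all 4 clusters.

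**Figure D4:**
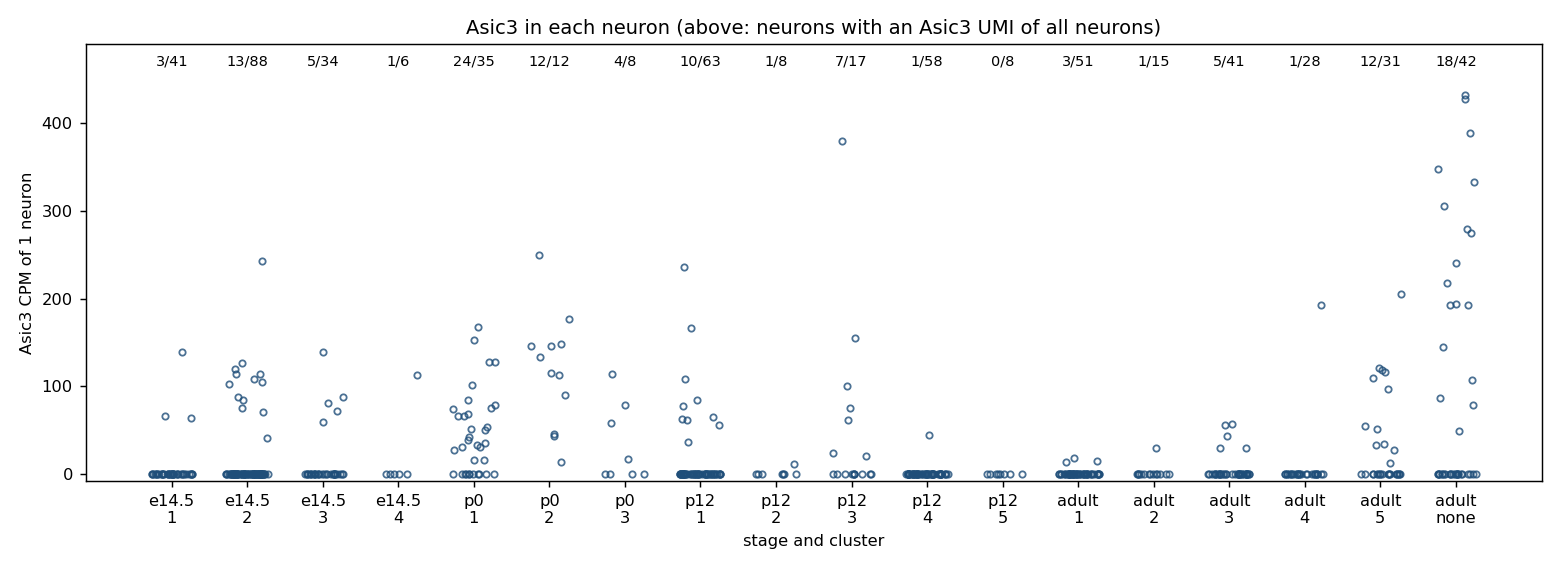
*Asic3* in every kept neuron, in CPM, by stage and cluster, with the number of neurons with an *Asic3* UMI over all neurons of the cluster above each column. It is found in most neurons of p0 clusters 1 and 2, then in few outside p12 clusters 1 and 3, adult cluster 5 and the adult neurons without a number, which reach 431 CPM.

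**Figure D5:**
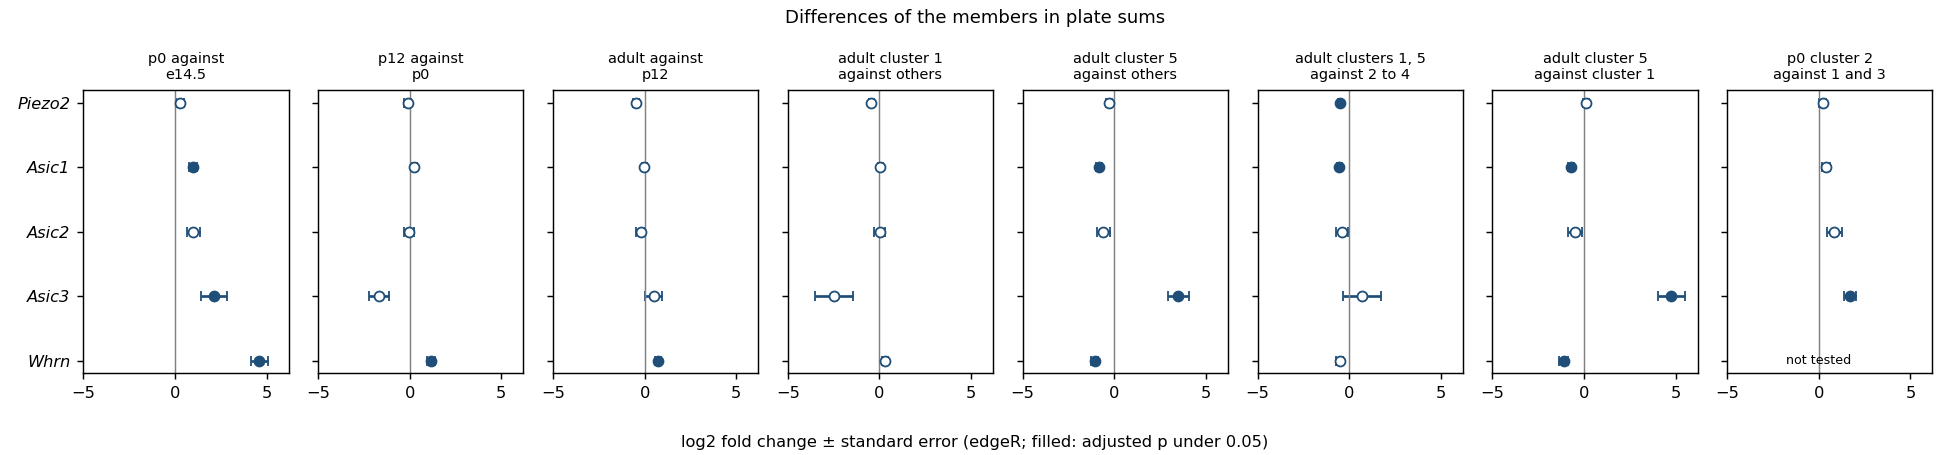
Log2 fold changes of the 5 members with their standard errors, 1 panel per comparison of plate sums. Filled points have an edgeR adjusted p under 0.05. They are *Asic1*, *Asic3* and *Whrn* for p0 against e14.5 and for adult cluster 5 against the others and against cluster 1, *Whrn* alone for the 2 later steps between stages, *Piezo2* and *Asic1* for adult clusters 1 and 5 against 2 to 4, and *Asic3* for the p0 clusters.

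Genes related to the members were read from 3 lists. For all 3, the step from e14.5 to p0 is also that over which the summed glial markers went from between 4.05 and 22.6 to between 490 and 630 CPM on the plates, and their part was not tested. Of the 21 other channels reported as mechanosensitive or of the ASIC and ENaC family, 10 were tested between stages, and 3 were called for p0 against e14.5, where 27.8% of all genes were. Of these, *Tmem63b*, an osmotically gated channel, rose by 0.96 ± 0.26 (SE, adjusted p = 0.0148), and *Tmem87a* fell by 1.26 ± 0.32 (adjusted p = 0.0101). The median log2 fold change of the 10 was 0.59, beside 0.01 for all genes. *Tmem63b* rose again from p0 to p12 (0.82 ± 0.22, SE, adjusted p = 0.018), and in the adult it was the 1 channel called of 6 tested for any difference among clusters, where 9.67% of all genes were called. It was lower in cluster 5 than in cluster 1, where 4.76% of all genes were called (-0.64 ± 0.15, adjusted p = 0.0141). *Tmem87a* rose from p12 to the adult (0.72 ± 0.22, adjusted p = 0.0426).

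Of 12 proteins known to bind or modulate these channels, 7 were tested and 4 rose from e14.5 to p0, where 14.7% of all genes were called higher. *Anxa6*, an annexin that binds phospholipids, rose by 1.69 ± 0.23 (SE, adjusted p = 0.00016), from 201 ± 13.1 to 665 ± 77.7 CPM (SD, n = 2). *Stoml2*, *Pick1* and *Stoml1* rose by between 0.77 and 1.11. The median of the 7 was 0.77, beside 0.01 for all genes. *Akap5*, which anchors protein kinase A, fell by 3.15 ± 0.49 from p0 to p12 (SE, adjusted p = 0.00051) and rose by 2.23 ± 0.44 from p12 to the adult (adjusted p = 0.0045). Its levels were 156, 70.8, 10.4 and 41.8 CPM from e14.5 to the adult.

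Of 12 partners of Whirlin, 4 passed the filter on low counts between stages, and 2 rose from e14.5 to p0, where 14.7% of all genes were called higher. *Cib2*, an Usher protein, rose by 1.25 ± 0.25 (SE, adjusted p = 0.0024) and *Mpp1*, a membrane scaffold, rose by 1.17 ± 0.27 (adjusted p = 0.0062) from e14.5 to p0. *Cib2* then fell by 0.63 ± 0.20 to p12 (adjusted p = 0.0408), the step at which *Whrn* rose by 1.15. Of the 45 listed genes with a row, 10 had no UMI in any of the 586 kept neurons, which allows a share of neurons with a UMI of up to 0.512%, covers counting error only and does not limit the share that expresses the gene. Among them were *Piezo1*, *Asic5*, *Tmem63a*, *Trpc6* and *Scnn1g* of the channels, *Stoml3* and *Mdfi* of the modulators, and *Ush1c* and *Ush1g* of the partners of Whirlin.

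Over the 13 plate sums, the genes whose log2(CPM + 1) was most like that of *Whrn* included *Got1* and *Rab6b* (Pearson's r = 0.989 for both), and those most like *Asic1* were *Tsc22d3*, *Vdac1* and *Plekhb2* (0.996, 0.988 and 0.983). *Asic3* was most like *Arpc3* (0.924), *Asic2* like *Trak2* (0.893) and *Piezo2* like *Cdh12* (0.894). Among the members, *Asic1* and *Whrn* were the pair most alike (0.901). These plates share stage and depth, and no test was made. Over the 18 adult sums by cluster and plate, the genes most like *Asic3* were *Kcnd2*, a potassium channel subunit, *Fermt2* and *Cpne6* (0.881, 0.851 and 0.83), and those most like *Whrn* were *Vat1l*, *Syngr1* and *Slco3a1* (0.858, 0.835 and 0.822). There *Asic1* and *Whrn* had an r of 0.733 and *Asic3* and *Whrn* one of -0.628, over sums that share plates and differ in depth.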

How the data were processed

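Per the labels and the study's methods, single dorsal root ganglion neurons were sorted on tdTomato into 13 plates, and the deposited tables hold raw UMI counts per gene and well, made by the authors from reads aligned with STAR to GRCm38 (mm10). The authors' table of kept neurons and clusters was joined by plate and well. The strand setting of the counting is not given in the sources used here. The 5 members and all gene lists were chosen with earlier results of these data known.

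UMIs were summed per plate, or per cluster and plate (at least 2 neurons), and tested by edgeR's quasi-likelihood F-test (edgeR 4.0.16, R 4.3.3) after filterByExpr and TMM scaling, with Benjamini-Hochberg adjustment over all tested genes and a threshold of 0.05. The stage fit held 4 stages and the adult fit 5 clusters, and p0 and e14.5 clusters had fits of their own. DESeq2 1.42.0, other scaling, no filter, thinning, a plate block and left-out plates were alternatives. Thinned shares (7000 UMIs a neuron, seed 1) were compared by an exact permutation test (scipy 1.17.1). Fold intervals (95%) and floors (3 counts) cover counting error only. Plates held between 680212 and 2387288 UMIs of kept neurons.

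On simulated data with genes changed by 1 and 2 on the log2 scale, 30.3% and 78.4% were recovered for adult against p12 (11939 genes), 32.4% and 79.6% for cluster 5 against cluster 1 (7370 genes), 46.1% and 81.6% for the p0 clusters (5061 genes) and 30.0% and 53.0% for the e14.5 clusters (4912 genes). Of the genes called there at an adjusted p under 0.05, 8.8%, 2.6%, 7.3% and 8.8% in the same order had not been changed. The members are always named. Listed genes are named where called in the stage or adult fit, and likeness is given for up to the 3 genes of highest Pearson's r. Some genes that these rules select are not reported here. Wells the authors left out entered no comparison except 1 alternative.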

Additional observations from a re-analysis of the deposited data

Results flagged for a closer look

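Among 30 groups of 4 or 5 plates checked for a plate far from the rest, 2 held one, where chance gives about 1 in 20, and both are *Asic3*. In adult cluster 1, replicate 5 stood at 6.25 CPM against 0 to 1.27 CPM on the other plates, from 1 UMI in 3 neurons. In adult cluster 3, replicate 2 stood at 28.7 CPM against 2.28 to 6.23 CPM, from 1 UMI in 2 neurons.

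The members were also found in wells that the authors left out, which entered 1 alternative of the comparison of stages and no other comparison. The 551 left-out wells with at least 2000 genes held 4530 UMIs of *Piezo2*, 3120 of *Asic1*, 593 of *Asic2*, 534 of *Asic3* and 1369 of *Whrn*, and *Asic3* was found in 145 of them (26.3%). Summed markers of satellite glia and Schwann cells lay between 7495 and 12545 CPM on the adult plates of these wells, against 293 to 814 CPM in kept adult neurons. The 111 wells under 2000 genes held 23 UMIs of *Piezo2*, 5 of *Asic1* and 6 of *Asic3*.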

How the results depend on the processing

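The members' few UMIs, the small number of plates and the uneven spread of clusters over plates limit these values. The alternatives that use a subset of p12 or adult plates, or adult clusters 1 to 5 only, in the comparison of stages were chosen after seeing the data. In the values below a log2 fold change is given unless a p is named, and the cause of each change was not tested.

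Between stages, *Asic2* passed for p0 against e14.5 with all wells of at least 2000 genes (1.02) and with p12 replicates 1 and 2 only (0.98) or 3 and 4 only (1.00). *Asic3* passed for p12 against p0 with no filter on low counts (-1.65), DESeq2 size factors (-1.69), thinning (-2.37), all wells (-1.62), p12 replicates 3 and 4 only (-3.22), and adult replicates 1 and 2 only (-1.68) or 3 to 5 only (-1.69). For adult against p12 it passed with thinning (1.58) and p12 replicates 3 and 4 only (2.05), and turned with adult clusters 1 to 5 only (-0.85), p12 replicates 1 and 2 only (-0.42) and adult replicates 1 and 2 only (-0.13). *Piezo2* passed for adult against p12 with DESeq2 (-0.49), its size factors in edgeR (-0.49) and adult replicates 3 to 5 only (-0.65). Thinning ended the *Whrn* calls for p12 against p0 (1.21) and adult against p12 (0.66). Changes near 0 turned sign for *Asic1* for p12 against p0 with thinning (-0.022) and for adult against p12 with thinning (0.15), adult clusters 1 to 5 only (0.0062), p12 replicates 3 and 4 only (0.10) and adult replicates 1 and 2 only (0.13), and for *Asic2* for p12 against p0 with p12 replicates 1 and 2 only (0.18) and for adult against p12 with thinning (0.65) and p12 replicates 3 and 4 only (0.0029).

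Among adult clusters, the plate as a replicate block added *Piezo2* for cluster 1 against the others (-0.38, adjusted p = 0.0143) and *Whrn* for clusters 1 and 5 against 2 to 4 (-0.52, adjusted p = 0.0393), and changed no other call of a member. Replicates 1 and 2 only ended the calls of cluster 5 against cluster 1 for *Asic1* (-0.65), *Asic3* (4.35) and *Whrn* (-0.99), of cluster 5 against the others for *Asic3* (2.40) and *Whrn* (-0.84), and of any difference for *Asic1*, *Asic3* and *Whrn* (adjusted p = 0.0586, 0.191 and 0.214). They turned the sign of cluster 1 against the others for *Asic1* (-0.054) and *Asic2* (-0.18) and of clusters 1 and 5 against 2 to 4 for *Asic3* (-0.43). Replicates 3 to 5 only ended *Asic1* for cluster 5 against cluster 1 (-0.73). These plates hold clusters 1, 3 and 5 only, so their other values are other contrasts and no repeat of those reported. For cluster 5 against clusters 1 and 3, *Piezo2* had the opposite sign (0.061), and for clusters 1 and 5 against cluster 3, *Whrn* passed (-0.91) and *Piezo2* and *Asic1* did not (-0.20 and -0.44). Thinning ended *Asic1* and *Whrn* for cluster 5 against cluster 1 (-1.16 and -1.15), against the others (-1.04 and -1.24) and for any difference (adjusted p = 0.18 and 0.127). With thinned counts *Asic3* and *Asic2* were under the filter. For clusters 1 and 5 against 2 to 4, *Piezo2* and *Asic1* were lost with no filter (-0.42 and -0.46), thinning (-0.44 and -0.42) and replicates 1 and 2 only (-0.48 and -0.61). Sums of at least 1 neuron ended *Asic1* there (-0.50), for cluster 5 against cluster 1 (-0.70) and for any difference (adjusted p = 0.0881), and sums of at least 4 added *Piezo2* for any difference (adjusted p = 0.0497). *Asic2* for cluster 1 against the others turned with DESeq2 (-0.041) and its size factors (-0.0084). DESeq2 ended *Asic3* for the p0 clusters (1.69). At 2 UMIs or more, the thinned share of *Piezo2* turned to -0.986 percentage points.

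Leaving out each plate in turn gave these ranges where a call or sign changed. Also given are e14.5 and p0 cluster values that kept their sign, had no test and moved from the reported log2 fold change by more than its SE. For p0 against e14.5, it was 0.67 to 1.47 for *Asic2* and 1.95 to 2.43 for *Asic3*. For p12 against p0, it was -0.19 to 0.14 for *Asic2*, -2.23 to -1.27 for *Asic3* and 0.98 to 1.27 for *Whrn*. For adult against p12, it was -0.56 to -0.41 for *Piezo2* and -0.090 to 0.045 for *Asic1*. For cluster 1 against the others, it was -0.037 to 0.19 for *Asic1* and -0.16 to 0.20 for *Asic2*. For cluster 5 against the others, it was -1.26 to -0.91 for *Whrn*. For clusters 1 and 5 against clusters 2 to 4, it was -0.56 to -0.46 for *Piezo2* and -0.59 to -0.42 for *Asic1*. For cluster 5 against cluster 1, it was -0.80 to -0.64 for *Asic1* and -1.40 to -0.93 for *Whrn*. For any difference among adult clusters (adjusted p), it was 0.0447 to 0.0811 for *Asic1* and 0.00608 to 0.0928 for *Whrn*. For e14.5 clusters 3 and 4 against clusters 1 and 2, it was 0.37 to 0.86 for *Piezo2*. For p0 cluster 2 against clusters 1 and 3, it was -0.18 to 0.47 for *Piezo2*, -0.088 to 0.77 for *Asic1* and 0.94 to 2.37 for *Asic3*. For the thinned share, adult against p12, in percentage points, it was -9.68 to 4.2 for *Asic1*. With 1 plate left, the e14.5 and p0 cluster values are log2 ratios with no test. A plate left alone in a stage was assumed to vary like the others.

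Counts of called genes moved too. They ranged from 529 to 3070 (1687 as reported) for adult against p12, 1455 to 4114 (3314) for p0 against e14.5 and 646 to 3102 (2162) for p12 against p0. Among adult clusters they ranged from 170 to 1543 (713) for any difference, 69 to 930 (419) for cluster 1 against the others, 35 to 712 (351) for cluster 5 against cluster 1, 33 to 547 (297) for cluster 5 against the others and 51 to 781 (415) for clusters 1 and 5 against 2 to 4. For the e14.5 and p0 clusters they ranged from 31 to 114 (58) and 31 to 161 (61). Of the recomputed comparisons of the members, 659 kept their direction and side of the threshold, 57 lost a call, 26 gained one and 33 turned sign. The other 5 had no test and moved from the reported log2 fold change by more than its SE. The counts of genes and of comparisons include those on adult replicates 3 to 5, which lack clusters 2 and 4.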
